A study of Homo sapiens with 6 samples.

Results

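The genes described here are 47 interferon-stimulated antiviral genes, chosen by symbol as a known family of interferon effectors and their regulators. All 47 were among the 17448 genes listed in the expression table, and 38 of them had enough counts to be tested. RNA-seq was performed on HCC2814, an established human lung squamous cell carcinoma line. The 3 WT samples carried a non-targeting control guide, and the 3 MLST8-KO samples carried a CRISPR guide against MLST8, a subunit that mTORC2 and mTORC1 share. Cells of both groups received a guide and antibiotic selection and grew in DMEM with fetal bovine serum, and the protocols name no interferon treatment. The guides were delivered by lentivirus in the study's methods, and whether the MLST8-KO cells were a pool or a clone is not given in the sources used here. The study's western blots number several sgControl and sgMLST8 samples of HCC2814 cells. Whether the replicate numbers of the RNA-seq samples stand for different guides is not given either.

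Cells sense viral RNA or DNA inside the cell and answer by releasing type I interferons (alpha and beta) and type III interferons (lambda). These bind receptors on the same or neighbouring cells, activate JAK kinases and the factor ISGF3, which holds STAT2 and IRF9, and switch on a large set of interferon-stimulated genes. ISGF3 and the IRF proteins recognise the interferon-stimulated response element (ISRE), whereas interferon gamma acts through the gamma-activated site (GAS). The products sense viral RNA, degrade it, block its translation, tag proteins with the ubiquitin-like protein ISG15 or restrict viruses at membranes, and epithelial cells keep a low level of many of them without infection.

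The ISRE core was searched for in the promoters of these genes, because it is the element through which ISGF3 and the IRF proteins act. The search used the letters GAAA, any 2 bases and GAAA again, on both strands of a window of 300 bases (250 before and 50 after the RefSeq start site, GRCh38.p14). The window was given for 38 of the 47 genes, and 26 of these (68.4%) held at least 1 match, against 3.57% of all 35116 promoters. GAS matches (TTCNNNGAA, both strands) were in 11 of the 38 (28.9%), against 7.66% of all promoters. The genes were chosen as interferon-stimulated, so these shares describe the choice of genes and not these samples. For each gene the first window listed was used, whereas every window was counted for the background. A match is a run of letters and not a shown binding site. The stretches around the matches are given for 5 genes that were higher in MLST8-KO cells, for 2 that did not pass the test (IFITM3 and BST2) and for 1 that was lower (SOCS1). Each is 5′ to 3′ on the gene's own strand, from 15 bases before the first match to 15 after the last, with the letters of the ISRE core matches in capitals. A match that starts with TTTC is the same core on the other strand. Positions count the start site as 0.
IFIT1, chr10:89392492-89392544 (+ strand, -131 to -79 from the start site): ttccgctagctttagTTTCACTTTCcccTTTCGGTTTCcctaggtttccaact
IFIT3, chr10:89327826-89327899 (+ strand, -171 to -98): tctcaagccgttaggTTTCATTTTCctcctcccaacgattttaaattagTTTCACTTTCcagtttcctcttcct
ISG15, chr1:1013369-1013414 (+ strand, -128 to -83): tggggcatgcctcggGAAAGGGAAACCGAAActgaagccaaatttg
IFI6, chr1:27672261-27672363 (- strand, -171 to -69): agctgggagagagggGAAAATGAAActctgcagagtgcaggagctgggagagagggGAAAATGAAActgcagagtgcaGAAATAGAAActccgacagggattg
DDX60, chr4:168318781-168318855 (- strand, -103 to -29): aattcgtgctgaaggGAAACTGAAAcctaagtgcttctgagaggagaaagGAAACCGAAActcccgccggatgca
IFITM3, chr11:320871-320927 (- strand, -67 to -11): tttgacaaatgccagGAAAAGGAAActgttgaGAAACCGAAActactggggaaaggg
BST2, chr19:17405730-17405775 (- strand, -145 to -100): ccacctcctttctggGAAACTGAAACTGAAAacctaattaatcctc
SOCS1, chr16:11256293-11256332 (- strand, -128 to -89): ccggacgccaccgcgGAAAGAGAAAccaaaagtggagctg

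In IFIT1 and IFIT3 the matches lie apart, whereas in ISG15 and BST2 neighbouring matches share letters. IFI6 held 3 matches. The element did not separate the genes that rose from those that did not. It was in 15 of the 22 higher genes with a window (68.2%) and in 8 of the 11 tested genes that did not pass the threshold (72.7%).

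Most of these genes were higher in MLST8-KO cells, and by small amounts. Of the 38 genes tested, 25 were higher (65.8%) and 0 were lower by edgeR's quasi-likelihood test at an adjusted p under 0.05, against 16.3% higher and 15.7% lower of all 12951 genes tested. At an unadjusted p under 0.05, 0 were lower, and DESeq2 called 21 higher and 0 lower (13.5% and 14.6% of all genes by that tool). The median log2 fold change was 0.49, against 0.0 over all genes tested, and the range was -0.14 to 1.03. HERC6 alone rose by at least 2-fold, 11 genes rose from 1.5-fold to under 2-fold and 13 rose by less than 1.5-fold. Of all genes tested, 7.86% rose and 4.56% fell by at least 1.5-fold. In 28 of the 38, every MLST8-KO sample was above every WT sample, and in 1 every MLST8-KO sample was below (24.8% and 24.2% of all genes). The 28 were the 25 higher genes with STAT2, PARP12 and BST2. The 13 genes that did not pass the threshold had positive log2 fold changes in 11 and negative ones in USP18 and OAS1.

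**Figure D1:**
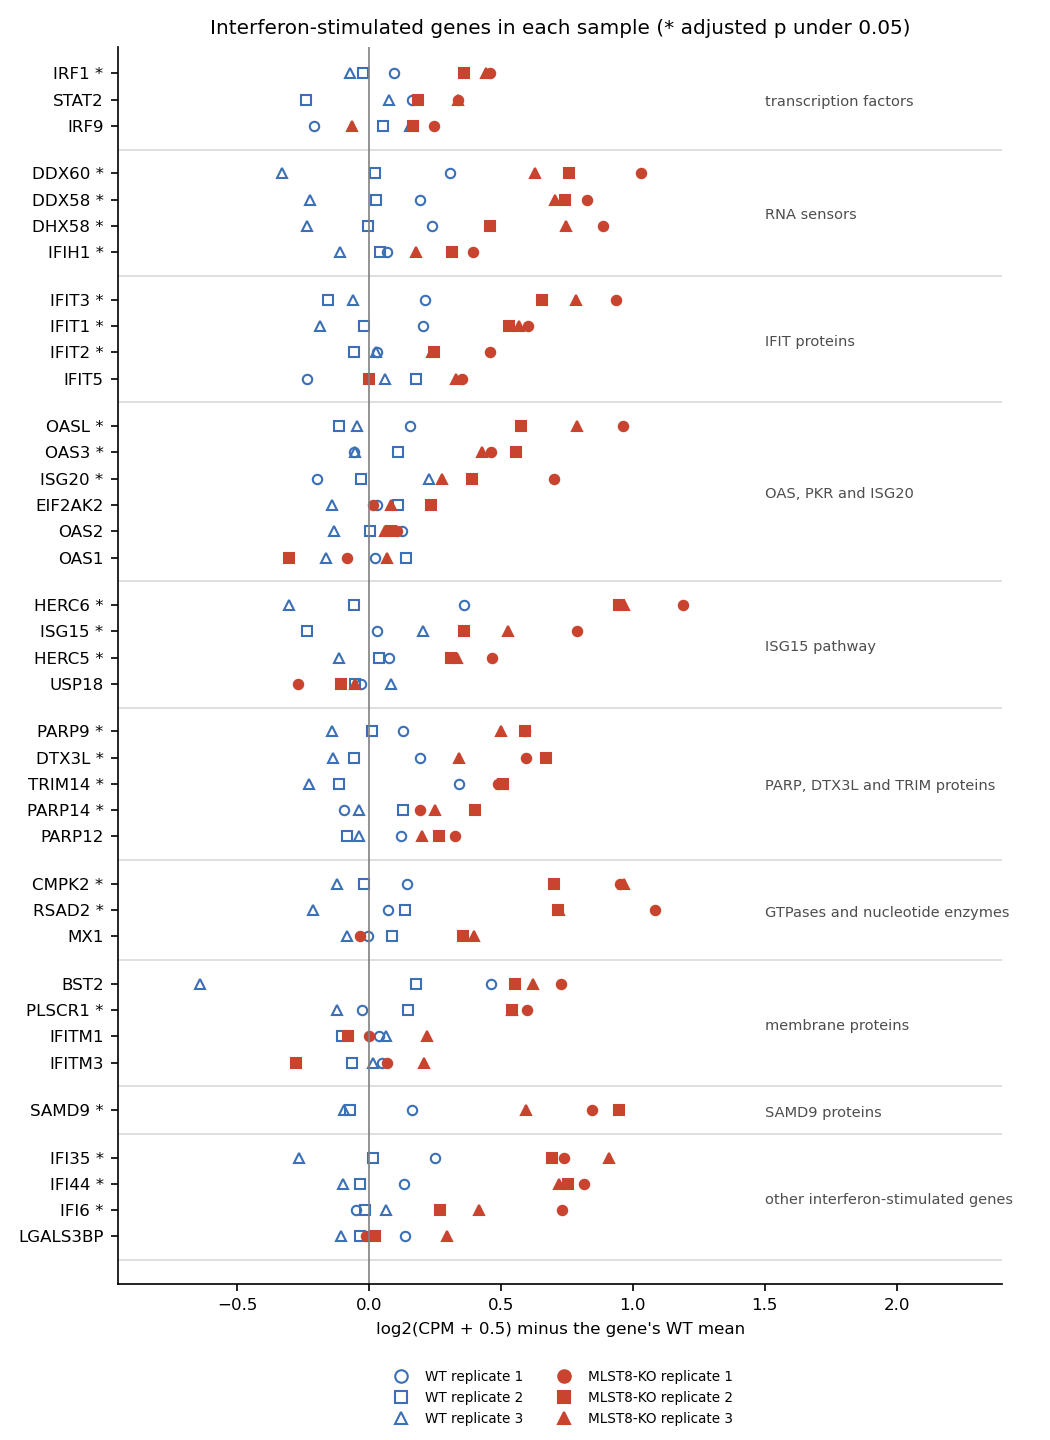
Level of each of the 38 tested genes in the 6 samples, as log2(CPM + 0.5) minus the mean of the 3 WT samples, grouped by role. Open blue symbols are WT and filled red symbols MLST8-KO samples, the shapes give the replicate number, and asterisks mark the 25 genes with an edgeR adjusted p under 0.05. In those 25 every red symbol is to the right of every blue symbol.

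The targeted gene was lower in the samples labelled MLST8-KO. MLST8 was at 58.0, 56.9 and 60.7 CPM (counts scaled to library size after TMM) in WT replicates 1, 2 and 3, and at 25.5, 38.9 and 25.7 CPM in the corresponding MLST8-KO samples. The difference was -0.96 ± 0.15 on the log2 scale (SE; adjusted p = 0.00339). Estimated counts summed to between 14381673 and 15744154 per sample. In the sections that follow, the 3 values of each group are CPM in replicates 1, 2 and 3, and each fold change is on the log2 scale, MLST8-KO against WT, with its SE and edgeR's adjusted p.

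Among the transcription factors, IRF1, which interferon gamma induces strongly and which itself binds ISRE elements, was at 14.9, 13.7 and 13.2 CPM in WT and 19.3, 18.0 and 19.1 CPM in MLST8-KO samples. The groups did not overlap, and IRF1 rose by 0.43 ± 0.11 (adjusted p = 0.014). Its estimated counts were not whole in 5 of the 6 samples. STAT2 and IRF9 did not pass the threshold. STAT2 had a log2 fold change of 0.29 ± 0.13 (adjusted p = 0.111) and IRF9 of 0.12 ± 0.15 (adjusted p = 0.554). IRF7, which amplifies the interferon response, had 2 to 6 counts in WT and 4 to 9 in MLST8-KO samples and was too low to be tested.

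All 4 RNA sensors rose. DDX58 encodes RIG-I, which recognises short viral RNA with a 5′ triphosphate. It was at 38.3, 34.1 and 28.6 CPM in WT and at 59.6, 56.3 and 54.8 CPM in MLST8-KO samples, a difference of 0.75 ± 0.11 (adjusted p = 0.00283). DDX60, a helicase linked to the same sensors, was at 20.2, 16.5 and 12.8 CPM in WT and 33.7, 27.8 and 25.4 CPM in MLST8-KO samples (0.81 ± 0.16, adjusted p = 0.00694). DHX58 (LGP2), a regulator of both sensors without a signalling domain, was lower in level, at 5.70, 4.75 and 3.97 CPM in WT and 9.23, 6.73 and 8.32 CPM in MLST8-KO samples (0.75 ± 0.19, adjusted p = 0.015). In these 3 genes the WT order was the same, with replicate 1 highest and replicate 3 lowest, and the lowest MLST8-KO sample stayed above WT replicate 1. IFIH1, which encodes the long double-stranded RNA sensor MDA5, rose by less, 0.30 ± 0.10 (adjusted p = 0.0394), and DESeq2 did not call it (adjusted p = 0.0648).

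The IFIT proteins bind viral RNA and hinder its translation. IFIT3 was at 31.6, 24.4 and 26.1 CPM in WT and 52.5, 43.2 and 47.2 CPM in MLST8-KO samples (0.80 ± 0.12, adjusted p = 0.003). IFIT1, which recognises RNA caps that lack a methyl group, was at 45.4, 38.8 and 34.5 CPM in WT and 60.0, 57.0 and 58.5 CPM in MLST8-KO samples (0.56 ± 0.10, adjusted p = 0.00511). Both groups of values were well apart in these genes. IFIT2 rose by 0.32 ± 0.09 (adjusted p = 0.021), from 45.5 to 48.4 CPM in WT to 56.0 to 65.2 CPM in MLST8-KO samples. IFIT5 was at 3.91 to 5.37 CPM in WT and 4.69 to 6.13 CPM in MLST8-KO samples, with a log2 fold change of 0.25 ± 0.19 (adjusted p = 0.328). IFIT1, IFIT2 and IFIT3 lie next to each other on chromosome 10 within the span of an annotated LIPA transcript on the other strand. Their estimated counts were whole in every sample. Whether the counting used strand is not given in the sources used here.

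Of the OAS family, which makes the 2′-5′ oligoadenylates that activate RNase L, only part moved. OASL, the member without synthetase activity, was at 68.9, 57.1 and 59.9 CPM in WT and 121, 92.4 and 107 CPM in MLST8-KO samples (0.79 ± 0.11, adjusted p = 0.00285). OAS3 was at 24.9, 28 and 25.0 CPM in WT and 35.9, 38.4 and 35.1 CPM in MLST8-KO samples (0.49 ± 0.09, adjusted p = 0.00561). The values of both genes were apart between the groups. OAS1 was at 6.63, 7.23 and 5.77 CPM in WT and 6.13, 5.19 and 6.85 CPM in MLST8-KO samples (-0.11 ± 0.17, adjusted p = 0.625), and OAS2 had a log2 fold change of 0.09 ± 0.17 (adjusted p = 0.7). The values of these genes overlapped between the groups. Whether the family members differ from each other was not tested. EIF2AK2, which encodes the kinase PKR that halts translation on double-stranded RNA, was at 92.3 to 110 CPM in WT and 103 to 120 CPM in MLST8-KO samples (0.11 ± 0.09, adjusted p = 0.381). ISG20, an exonuclease for single-stranded RNA, was at 7.56, 8.54 and 10.3 CPM in WT and 14.5, 11.6 and 10.7 CPM in MLST8-KO samples. Its rise of 0.48 ± 0.17 was close to the threshold (adjusted p = 0.0481), and it did not pass with DESeq2 (adjusted p = 0.0636).

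ISG15 is conjugated to proteins by an E1 enzyme (UBA7), an E2 (UBE2L6) and an E3 (HERC5 in human cells), and USP18 removes it and also restrains the type I receptor. ISG15 itself was at 47, 39.0 and 53.0 CPM in WT and 79.8, 59.1 and 66.5 CPM in MLST8-KO samples (0.56 ± 0.13, adjusted p = 0.0122). HERC6, a relative of HERC5 that serves as the E3 in mice, had the largest log2 fold change of the family, from 19.8, 14.7 and 12.3 CPM in WT to 35.6, 30.0 and 30.4 CPM in MLST8-KO samples (1.03 ± 0.16, adjusted p = 0.00339). HERC5 rose by 0.37 ± 0.09 (adjusted p = 0.0109), from 76.1, 74.2 and 66.7 CPM to 99.9, 89.7 and 91.2 CPM. The ligases and the modifier thus lay above WT in all 3 MLST8-KO samples. USP18 was at 21.4, 21.1 and 23.2 CPM in WT and 18.1, 20.3 and 21.1 CPM in MLST8-KO samples. Before rounding, every MLST8-KO sample was below every WT sample, but the log2 fold change of -0.14 ± 0.10 did not pass the threshold (adjusted p = 0.309). The E1 and E2 enzymes, which are not among the 47, had negative log2 fold changes that did not pass either. UBA7, at 0.258 to 1.19 CPM over all samples, had -0.99 ± 0.43 (adjusted p = 0.0987) and UBE2L6 had -0.32 ± 0.11 (adjusted p = 0.0534).

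**Figure D2:**
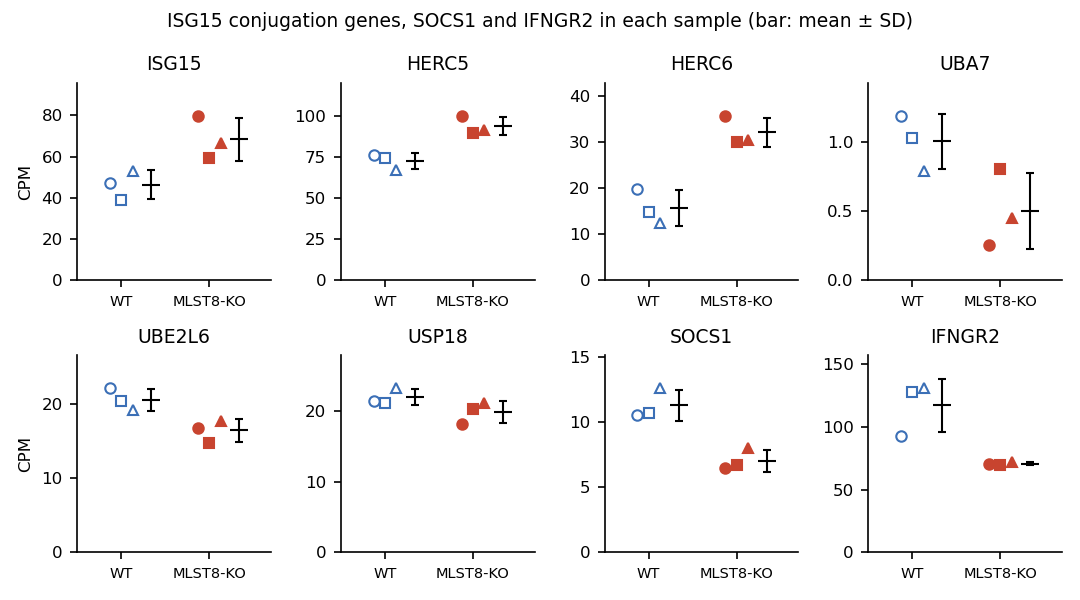
CPM in each sample of the ISG15 system (ISG15, HERC5, HERC6, UBA7, UBE2L6 and USP18) and of SOCS1 and IFNGR2, with WT as open blue and MLST8-KO as filled red symbols and the bars giving mean ± SD (n = 3). ISG15, HERC5 and HERC6 were higher and SOCS1 and IFNGR2 lower in MLST8-KO samples, whereas UBA7, UBE2L6 and USP18 did not pass the threshold.

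PARP9 and DTX3L form a complex that joins ADP-ribosylation to ubiquitination, and they share a bidirectional promoter. PARP9 was at 9.15, 8.40 and 7.50 CPM in WT and 12.8, 12.8 and 12 CPM in MLST8-KO samples (0.59 ± 0.13, adjusted p = 0.00947). DTX3L was at 22.9, 19.2 and 18.1 CPM in WT and 30.4, 32.1 and 25.4 CPM in MLST8-KO samples (0.55 ± 0.13, adjusted p = 0.0109). The genes run in opposite directions at chr3:122527924-122564577 and chr3:122564238-122575203 and overlap by 340 bases (GENCODE, GRCh38). TRIM14, an adaptor of the MAVS signal, was at 30.2, 21.9 and 20.2 CPM in WT and 33.5, 34 and 33.9 CPM in MLST8-KO samples (0.49 ± 0.14, adjusted p = 0.0243). WT replicate 1 of TRIM14 lay close to the MLST8-KO values, and the gene overlaps NANS on the other strand by 13801 bases. The estimated counts of TRIM14 were not whole in any sample. PARP14 rose by 0.29 ± 0.10 (adjusted p = 0.0462), and DESeq2 did not call it (adjusted p = 0.0738). PARP12, an antiviral ADP-ribosyltransferase, had a log2 fold change of 0.27 ± 0.09 (adjusted p = 0.0516).

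RSAD2 encodes viperin, which makes the chain-terminating nucleotide ddhCTP, and its neighbour CMPK2 encodes the kinase that can supply the CTP for it. RSAD2 was at 5.90, 6.20 and 4.76 CPM in WT and 12.4, 9.51 and 9.54 CPM in MLST8-KO samples (0.90 ± 0.17, adjusted p = 0.00562). CMPK2 was at 3.91, 3.44 and 3.17 CPM in WT and 7.23, 5.99 and 7.30 CPM in MLST8-KO samples (0.96 ± 0.17, adjusted p = 0.00481). The genes were among the 3 with the largest log2 fold changes of the family. They lie head to head at chr2:6865806-6898239 and chr2:6840570-6866635 and overlap by 830 bases. The estimated counts of both genes were whole in every sample, and whether reads in the overlap were shared was not tested. MX1, a GTPase that blocks influenza and other viruses and is a common marker of the response, was at 1.33, 1.45 and 1.23 CPM in WT and 1.29, 1.85 and 1.92 CPM in MLST8-KO samples (0.34 ± 0.27, adjusted p = 0.351).

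The proteins that act at membranes had 1 gene of 4 past the threshold. PLSCR1, a phospholipid scramblase, was at 9.88, 11.2 and 9.23 CPM in WT and 15.5, 14.9 and 14.9 CPM in MLST8-KO samples (0.57 ± 0.12, adjusted p = 0.00825). BST2 (tetherin), which holds budding virions at the cell surface, was at 2.12, 1.65 and 0.721 CPM in WT and 2.65, 2.29 and 2.43 CPM in MLST8-KO samples. The groups did not overlap, but WT replicate 3 was far below the other WT samples, and the difference of 0.70 ± 0.33 did not pass (adjusted p = 0.126). IFITM3, which hinders viral entry from endosomes, was at 134, 124 and 131 CPM in WT and 136, 107 and 150 CPM in MLST8-KO samples (0.02 ± 0.11, adjusted p = 0.926). IFITM1 had a log2 fold change of 0.06 ± 0.22 (adjusted p = 0.843). The sign of both IFITM genes turned when single samples were left out.

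SAMD9, which restricts poxviruses, was at 8.03, 6.75 and 6.64 CPM in WT and 13.2, 14.2 and 11.0 CPM in MLST8-KO samples (0.84 ± 0.15, adjusted p = 0.0047). IFI35 was at 8.69, 7.30 and 5.92 CPM in WT and 12.4, 12 and 14 CPM in MLST8-KO samples (0.81 ± 0.16, adjusted p = 0.00639). IFI44 was at 6.17, 5.44 and 5.19 CPM in WT and 10.2, 9.76 and 9.54 CPM in MLST8-KO samples (0.81 ± 0.14, adjusted p = 0.00438). All 3 genes kept a clear gap between the groups. IFI6, a small protein that protects cells from flavivirus replication, was at 5.84, 5.99 and 6.35 CPM in WT and 10.4, 7.41 and 8.26 CPM in MLST8-KO samples (0.52 ± 0.16, adjusted p = 0.0364), and DESeq2 did not call it (adjusted p = 0.0668). LGALS3BP, a secreted glycoprotein that binds galectins, had overlapping values and a log2 fold change of 0.11 ± 0.10 (adjusted p = 0.445).

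The 9 remaining genes were removed by the filter on low counts. TRIM22 had 3, 3 and 2 counts in WT and 7, 7 and 7 in MLST8-KO samples. MX2 had 0, 1 and 1 counts in WT and 3, 6 and 3 in MLST8-KO samples, and IFITM2 had 0 in all WT and 1, 2 and 4 in MLST8-KO samples. The MLST8-KO counts of these 3 genes were above the WT counts, but a count of 0 allows up to 3 counts (0.185 to 0.216 CPM by sample), and no test was made. IFI27, a gene that responds strongly to type I interferon, had 1, 7 and 8 counts in WT and 13, 9 and 8 in MLST8-KO samples. IRF7, SAMD9L, XAF1, EPSTI1 and IFI44L also overlapped between the groups, and IFI44L had 0 counts in all but MLST8-KO replicate 3, which had 3.

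The family was unevenly expressed. By deposited TPM, which is scaled by gene length, IFITM3, LGALS3BP and ISG15 held 66.1% to 68.6% of the summed level of the 47 genes in WT samples and 59.8% to 65.0% in MLST8-KO samples. IFITM3 was at 430 to 484 TPM in WT, whereas the median WT level of the tested genes was 9.24 TPM. IFITM3 and LGALS3BP, 2 of these 3 genes, did not pass the threshold. The summed TPM of all 47 was 1350, 1210 and 1220 in WT and 1720, 1520 and 1690 in MLST8-KO samples, so the groups did not overlap. In bulk samples, more cells expressing a gene and more RNA per cell cannot be told apart.

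The samples of a group were not at the same level. Relative to each gene's WT mean, the median over the 38 tested genes was 0.11, -0.02 and -0.10 (log2) in WT replicates 1, 2 and 3, and 0.54, 0.40 and 0.42 in the corresponding MLST8-KO samples, whereas the median over all genes was 0.0 to 0.01. WT replicate 1 was the highest WT sample in 18 of the 25 higher genes and WT replicate 3 the lowest in 17. MLST8-KO replicate 1 was the highest MLST8-KO sample in 18. That sample also carried liver transcripts, with 7 liver markers summing to 236 CPM against 0.505 to 6.5 CPM in the other samples. Without it, all 25 genes kept a positive log2 fold change, and 14 of the family were past the threshold, against 7.49% higher and 6.5% lower of all genes in that fit. Without WT replicate 2, 15 were past it, against 7.41% and 7.97%. Leaving out WT replicate 1 or 3 gave 25 (20.5% and 20.2%) and 23 (12.5% and 11.9%). Leaving out MLST8-KO replicate 2 or 3 gave 20 (8.69% and 8.35%) and 21 (11.8% and 11.4%). The 25 without WT replicate 1 were not the same 25 genes. They were 22 of the higher genes with STAT2, PARP12 and BST2, whereas ISG20, IFI6 and PARP14 lost their call there. In all 6 fits 0 were lower. HERC6, OASL, DDX58, DDX60, IFIT1, IFIT3, RSAD2, CMPK2, OAS3, PARP9, SAMD9, IFI35, IFI44 and PLSCR1 passed in every fit run. The other 11 lost their call without at least 1 sample. PARP14 did so without each sample in turn, ISG20 in 5 of the 6 fits and HERC5 only without MLST8-KO replicate 1.

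**Figure D3:**
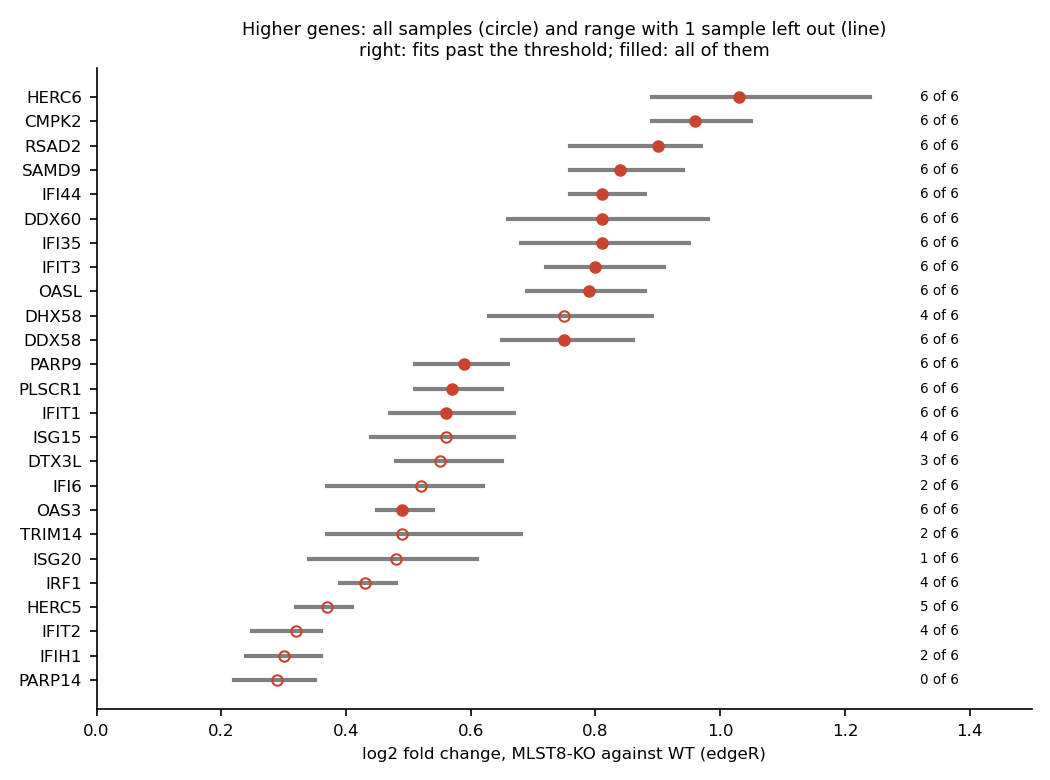
Log2 fold change (edgeR, MLST8-KO against WT) of the 25 higher genes with all 6 samples (circle) and its range over the 6 fits that leave out 1 sample (line). The numbers give the fits past the threshold, and filled circles mark the 14 genes that passed in all 6. Every line lies above 0.

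Cell type markers were examined beside these values. The 9 squamous epithelial markers, led by the keratins KRT5 and KRT6A, were all detected and summed to 14000 to 21000 CPM in WT and 24000 to 26900 CPM in MLST8-KO samples, and 7 of the 9 were higher. Within WT their sum was also highest in replicate 1 and lowest in replicate 3. The 4 immune cell markers listed summed to 53.7 to 78.6 CPM in WT and 40.8 to 55.3 CPM in MLST8-KO samples. Nearly all of that was CD68, and the leukocyte marker PTPRC was at 0 counts in every sample but WT replicate 3, where it was at 0.0721 CPM. The part of the squamous and liver transcripts in the rise of the interferon-stimulated genes was not tested.

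Other genes that interferons induce were called in both directions. Of 82 such genes outside the family, 71 were tested, 17 were higher (23.9%, against 16.3% of all genes tested) and 4 lower (5.63%, against 15.7%), with a median log2 fold change of 0.16. The largest rises were those of the CXCR3 chemokines, which attract activated T cells. CXCL10 was at 7.16, 8.61 and 4.55 CPM in WT and 22.2, 18.3 and 14.8 CPM in MLST8-KO samples (1.44 ± 0.22, adjusted p = 0.00339). CXCL11 was at 2.98, 3.37 and 2.16 CPM in WT and 7.42, 6.79 and 5.89 CPM in MLST8-KO samples (1.23 ± 0.20, adjusted p = 0.00369). CXCL9 was low, at 0.531, 0.344 and 0.649 CPM in WT and 1.94, 1.85 and 1.02 CPM in MLST8-KO samples (1.65 ± 0.38, adjusted p = 0.0114). The 3 chemokines did not overlap between the groups, and CXCL9 lost its call without WT replicate 2 or MLST8-KO replicate 1 (adjusted p up to 0.0545). GBP1, a guanylate-binding protein active against intracellular bacteria, rose by 1.03 ± 0.28 (adjusted p = 0.0207), and APOL1 by 0.98 ± 0.17 (adjusted p = 0.00412). The other 12 that rose, by 0.32 to 0.86, included SAMHD1, CCL5, IFI16 and CASP1. The estimated counts of CCL5 were not whole in any sample.

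The 4 interferon-inducible genes that fell are given because they went against the family. Their share was below that of all genes, but the MHC class I genes were counted separately after their values were seen. Of those, 5 of 17 were lower, so the size of this share depends on that split. GBP5, a relative of GBP1, was at 4.58, 4.75 and 5.27 CPM in WT and 2.77, 3.52 and 3.20 CPM in MLST8-KO samples (-0.62 ± 0.18, adjusted p = 0.0269). DESeq2 did not call GBP5 (adjusted p = 0.0764), and its estimated counts were not whole in any sample, so reads may have been split with similar genes. TRIM25, the ubiquitin ligase of the RIG-I pathway, was at 89.5, 98.5 and 122 CPM in WT and 81.3, 84.9 and 80.4 CPM in MLST8-KO samples (-0.33 ± 0.11, adjusted p = 0.0429). The ubiquitin-related genes FBXO6 (-0.47 ± 0.12, adjusted p = 0.0182) and NUB1 (-0.44 ± 0.13, adjusted p = 0.0251) also fell. FBXO6 was at 25.4, 25.9 and 30.9 CPM in WT and 20.8, 17.0 and 21.5 CPM in MLST8-KO samples. NUB1 was at 47.5, 51.8 and 67.4 CPM in WT and 40.9, 43.5 and 38.7 CPM in MLST8-KO samples. All 4 genes were apart between the groups. Over the 6 fits without a sample, FBXO6 passed the threshold in 4, GBP5 and NUB1 in 2 each and TRIM25 in 1. TRIM25 and NUB1 did not pass with limma. Without MLST8-KO replicate 1 none of the 4 passed, and 0 of the 82 listed genes were lower (6.5% of all genes).

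**Figure D4:**
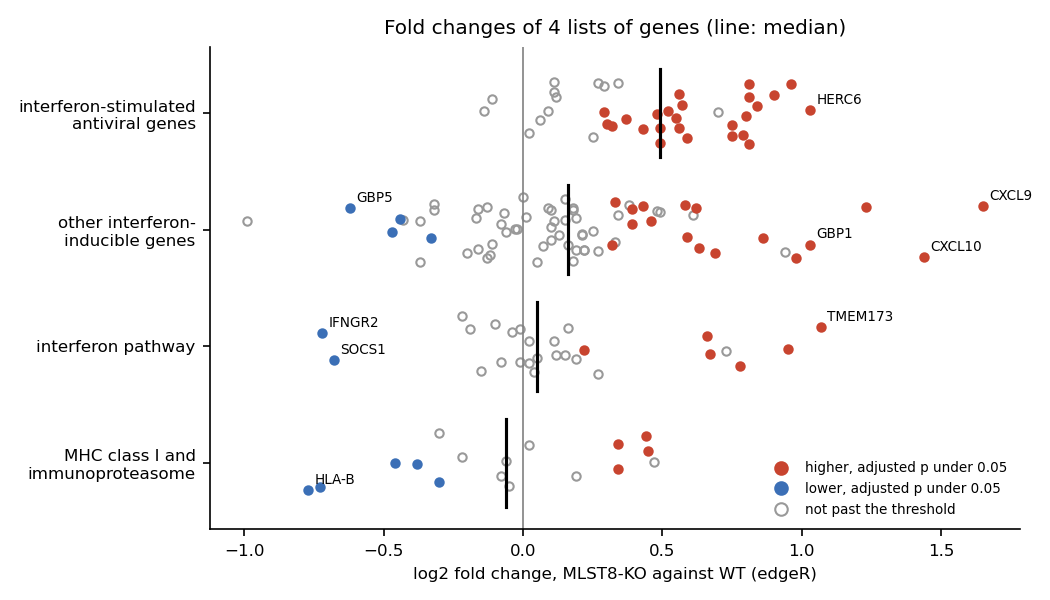
Log2 fold change (edgeR, MLST8-KO against WT) of each tested gene in 4 lists, with genes past the threshold in red (higher) or blue (lower), others as open grey circles and the median of each list as a black line. The medians are 0.49 for the interferon-stimulated antiviral genes, 0.16 for other interferon-inducible genes, 0.05 for the interferon pathway and -0.06 for MHC class I and immunoproteasome genes.

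The genes of antigen presentation on MHC class I, which interferons also induce, included several that fell. Of 17 genes, 5 were lower and 4 higher (29.4% and 23.5%, against 15.7% and 16.3% of all genes tested). This list was counted apart from the other interferon-inducible genes after its values were seen, so its shares depend on that split. HLA-B was at 216, 246 and 308 CPM in WT and 155, 117 and 181 CPM in MLST8-KO samples (-0.77 ± 0.16, adjusted p = 0.00814). It passed with each sample left out in turn. HLA-C, HLA-E and HLA-F also passed the threshold (-0.38, -0.30 and -0.73), and each lost its call when some samples were left out. The estimated counts of HLA-B and HLA-C were not whole numbers in any of the 6 samples, so reads may have been split with similar copies and their values are uncertain. Those of HLA-E and HLA-F were whole. B2M, the light chain, had -0.22 ± 0.08 (adjusted p = 0.054) and the peptide transporter subunit TAP1 had -0.30 ± 0.10 (adjusted p = 0.0513). The peptide-trimming enzymes ERAP1 and ERAP2, the transporter subunit TAP2 and the proteasome subunit PSMB10 were higher by 0.34 to 0.45. The last 4 lost their calls without WT replicate 2 and without MLST8-KO replicate 1, when 0 of the 17 genes were higher. Of all genes, 7.41% and 7.49% were higher in these fits.

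The pathway upstream of these genes had calls in both directions. Of 32 genes listed for ligands, receptors, kinases, sensors and inhibitors, 27 were tested, 6 were higher and 2 lower (22.2% and 7.41%, against 16.3% and 15.7% of all genes tested), with a median log2 fold change of 0.05. Among the ligands, IFNB1 was at 2.26, 1.65 and 2.38 CPM in WT and 2.52, 1.91 and 3.14 CPM in MLST8-KO samples (0.27 ± 0.26, adjusted p = 0.453). IFNL1, the highest ligand by TPM, was at 14.2, 11.4 and 10.2 CPM in WT and 12.8, 11.3 and 8.20 CPM in MLST8-KO samples (-0.15 ± 0.19, adjusted p = 0.566). The values of both genes overlapped. IFNL2 was at 2.92, 2.82 and 3.25 CPM in WT and 4.71, 4.26 and 5.31 CPM in MLST8-KO samples (0.67 ± 0.18, adjusted p = 0.0209), and DESeq2 did not call it (adjusted p = 0.0637). IFNL3 had 0.73 ± 0.27 (adjusted p = 0.0592), and its reads cannot be separated well from those of IFNL2, a near-identical copy.

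Of the receptors, IFNLR1, the specific chain for interferon lambda, was at 8.16, 6.20 and 7.21 CPM in WT and 11.1, 11.4 and 11.6 CPM in MLST8-KO samples (0.66 ± 0.14, adjusted p = 0.00874). IFNGR2, the signalling chain for interferon gamma, was at 92.5, 128 and 131 CPM in WT and 70.6, 69.7 and 72.0 CPM in MLST8-KO samples (-0.72 ± 0.12, adjusted p = 0.00401). Neither gene overlapped between the groups. The type I receptor chains IFNAR1 and IFNAR2 did not pass the threshold. The kinases JAK1, JAK2 and TYK2 did not pass either. In DNA and RNA sensing, TMEM173 (STING), the adaptor for cytosolic DNA, was at 5.84, 3.65 and 4.40 CPM in WT and 11.1, 8.89 and 9.16 CPM in MLST8-KO samples (1.07 ± 0.19, adjusted p = 0.00482). IKBKE, a kinase that phosphorylates IRF3, was at 5.77, 4.96 and 3.10 CPM in WT and 9.29, 8.09 and 9.54 CPM in MLST8-KO samples (0.95 ± 0.21, adjusted p = 0.00932). MAVS, the adaptor of RIG-I and MDA5, rose by 0.22 ± 0.07 (adjusted p = 0.043), but it passed in only 1 of the 6 fits without a sample (adjusted p up to 0.134). The related kinase TBK1 had a log2 fold change of -0.22 ± 0.08 (adjusted p = 0.0677).

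Of 5 inhibitors of the signal tested, 1 was higher and 1 lower, and 3 did not pass the threshold. The shares, 20.0% and 20.0%, were near the 16.3% and 15.7% of all genes tested. SOCS1, which interferons induce and which blocks JAK kinases, was at 10.5, 10.7 and 12.6 CPM in WT and 6.45, 6.67 and 8 CPM in MLST8-KO samples (-0.68 ± 0.15, adjusted p = 0.00903). PTPN6 (SHP-1), a phosphatase that acts on the same receptors, was at 9.62, 6.95 and 6.35 CPM in WT and 13.3, 11.9 and 14.2 CPM in MLST8-KO samples (0.78 ± 0.17, adjusted p = 0.009). Neither gene overlapped between the groups, and both passed with each sample left out in turn. SOCS1 holds an ISRE core match in the stretch printed above, as do 15 of the 22 higher genes of the family with a window. Whether these samples came from separate cultures or different guides is not given in the sources used here, so the p-values measure the spread between these samples.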

How the data were processed

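Per the labels and the study's methods, polyA libraries of 3 WT and 3 MLST8-KO samples were sequenced by BGI (DNBSEQ). The authors filtered the reads, aligned them with HISAT to GRCh38.p12, assigned them to genes with Bowtie2 and deposited estimated counts (not normalized), with FPKM and TPM values. Their table of a DESeq2 comparison was not used. Because 12.4% of the estimated counts were not whole, they were rounded, although the design was written for counts. Groups were taken from the sample labels.

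Counts were tested with edgeR 4.0.16 (R 4.3.3; filterByExpr, TMM, glmQLFTest), unpaired, with Benjamini-Hochberg adjustment over the 12951 genes tested and a threshold of 0.05. An SE is the size of the log2 fold change over the root of its F statistic. The SE thus includes the spread between samples that edgeR fitted. The limit of 3 counts given for a count of 0 covers counting error only. All pairs of replicates differed beyond sampling noise (chi-square per gene 6.77 to 26.2). On simulated counts of 12852 genes, the fit recovered 87.3% of 197 genes changed by a log2 fold change of 1, and 7.03% of its calls were false. In the data the members' median was 0.49, and 16.3% of all genes were called higher and 15.7% lower. The simulated rates were not measured for changes that small or that many. Alternatives used DESeq2 1.42.0, limma 3.58.1 on log2(FPKM + 1), log2(FPKM + 0.1) and log2(TPM + 1), other scalings and filters, a replicate block, a 1.5-fold minimum and fits without each sample. Promoter sequences are RefSeq's (GRCh38.p14), and gene positions GENCODE's (GRCh38). Figures were drawn with matplotlib 3.10.9.

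Members were matched by symbol, with no measured value in the rule, but the members and lists were chosen with earlier results of these data known. All 47 members are accounted for. Values per sample are given in each role group for up to 3 members with the largest fold change past the threshold, and for members near the filter. Of the interferon-inducible and pathway lists, the largest rises and every fall are named. The MHC class I list was counted separately after its values were seen. Some items are not reported here.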

Additional observations from a re-analysis of the deposited data

How the results depend on the processing

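Of 93 genes named, 63 passed the threshold, and the direction of these 63 did not turn in any of the 15 alternative fits run for each. Among the 47 members, the sign turned only for IFITM1 (-0.05 to 0.14 over fits without 1 sample) and IFITM3 (-0.09 to 0.14), and among the pathway genes named it turned for IFNL1 (-0.29 to 0.02), IFNAR1 (-0.04 to 0.07), IFNAR2 (-0.07 to 0.02), JAK1 (-0.17 to 0.04), JAK2 (-0.01 to 0.23) and TYK2 (-0.07 to 0.12). With limma on log2(FPKM + 1), log2(FPKM + 0.1) and log2(TPM + 1) and with upper quartile scaling, IFNAR2 turned to 0.09, 0.11, 0.14 and 0.04, JAK1 to 0.03, 0.04, 0.07 and 0.02, and TYK2 to 0.01, 0.01, 0.05 and 0.05. None of these genes passed the threshold with all samples. With a minimum of 1.5-fold, 12 members were higher, 10 other interferon-inducible genes were higher and 1 lower, and 0 MHC class I genes were higher and 2 lower. By that minimum, 7.86% of all genes tested were higher and 4.56% lower. Without 1 sample, members higher numbered 14 to 25, other interferon-inducible genes higher 8 to 20 and lower 0 to 7, and MHC class I genes higher 0 to 5 and lower 2 to 7. Fewer samples were in these fits, which called 7.41% to 20.5% of all genes higher and 6.5% to 20.2% lower. Other interferon-inducible genes lower numbered 2 with limma on log2(FPKM + 1), 2 on log2(FPKM + 0.1) and 1 on log2(TPM + 1). MHC class I genes lower numbered 3 in each of these limma fits and 3 with upper quartile scaling. The shares of all genes called in these fits are not given here. Fewer calls in these lists thus cannot be told from fewer calls over all genes. The cause was not tested. The counts of members lower (0) and of pathway genes, the members' median and MLST8 kept their direction and stayed within 1.5 times of the main value in the alternatives run. Over all genes, the count higher was 2116, and 971, 979 and 1136 without WT replicate 2, MLST8-KO replicate 1 and MLST8-KO replicate 2.

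Replicate numbers are shared by both groups. Deviations of same-numbered samples correlated at 0.105, 0.057 and 0.14, so the numbers were not taken as pairs, although each sample correlated best with its own number. With a replicate block, 24 members were higher, 0 were lower and the median was 0.50, and 17.5% of all genes were higher and 16.7% lower. Counts of other interferon-inducible genes (17 higher, 4 lower) and of pathway genes (6 higher, 2 lower) were as without it, MHC class I counts were 5 higher and 6 lower, and MLST8 had -0.99. ISG20 lost its call with the block. At these depths, genes under about 3 counts per sample could not be compared.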
